A study of Mus musculus with 5 samples.

Results

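Contacts between promoters that scored high in Sertoli cells and low in pre-granulosa cells were described across the mouse genome's chromosomes 1 to 9. A promoter pair was taken as Sertoli-only where a bin with a promoter, used as bait, met another promoter bin with a Sertoli score of at least 5 and a pre-granulosa score above 0 and below 2. The rule was met by 3157 of 27766 rows that join 2 promoter bins, and after counting each pair of bins once these were 2596 of 18297 listed promoter pairs, or 14.2%. The members were selected on the scores of both cell types, so those scores are a description and carry no test. The mirrored rule, in which the cell types change places, was met by 1091 pairs, or 5.96% of those listed. In 7805 pairs at least 1 row was called, at a score of 5 or more, in both cell types and neither rule was met, and the other 6805 pairs fell between these classes. No pair met both rules.

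The study compared capture Hi-C of Sertoli cells and pre-granulosa cells from gonads of mouse embryos at E13.5. Sertoli cells carried Sox9IRES-GFP, a fluorescent reporter at the Sox9 gene, and pre-granulosa cells carried Enh8-mCherry, a red fluorescent reporter. Each of the 3 Sertoli and 2 pre-granulosa libraries came from 100000 sorted cells cut with the enzyme DpnII, and the tables give 1 score per contact and cell type for all libraries of that type. A spread between libraries is therefore not given for any value, and the reporter of a sort and its cell type cannot be told apart.

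Capture Hi-C joins pieces of chromatin that lie close together in the nucleus and enriches the products that hold chosen promoters. Sertoli cells enclose the germ cells in testis cords and pre-granulosa cells enclose the oocytes of the ovary. Both arise from bipotential precursors, the former under Sry and Sox9 and the latter with Rspo1, Wnt4 and Foxl2. Promoters of active genes are known to meet each other as well as enhancers, often in gene-dense regions. A CHiCAGO score rises as the number of joined read pairs exceeds a background that falls with distance, and it is not a count of reads or of cells.

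Promoter sequences are shown for the 4 pairs with the highest scores from both ends and for the bin with the most Sertoli-only partners together with Ptgds, a Sertoli gene among them. Each is the 200 bases before a RefSeq start that lies in the bin (GRCm38.p6, the assembly named mm10 in the submitters' processing notes), written 5′ to 3′ on the gene's strand. Capitals mark matches on either strand to the GC box GGGCGG, the NF-Y box CCAAT, the ETS motif CCGGAAG or the TATA box TATAAA.
Ankrd60, chr2:173578274-173578473, minus strand: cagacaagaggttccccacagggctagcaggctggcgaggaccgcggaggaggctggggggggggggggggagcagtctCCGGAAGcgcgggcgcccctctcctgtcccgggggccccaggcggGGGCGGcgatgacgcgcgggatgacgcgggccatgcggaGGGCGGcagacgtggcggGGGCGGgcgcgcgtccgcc
Gnas, chr2:174284120-174284319, plus strand: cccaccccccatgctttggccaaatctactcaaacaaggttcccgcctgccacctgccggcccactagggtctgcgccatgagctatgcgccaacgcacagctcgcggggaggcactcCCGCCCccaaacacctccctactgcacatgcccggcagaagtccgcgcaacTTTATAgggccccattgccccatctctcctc
Cfap126, chr1:171113786-171113985, plus strand: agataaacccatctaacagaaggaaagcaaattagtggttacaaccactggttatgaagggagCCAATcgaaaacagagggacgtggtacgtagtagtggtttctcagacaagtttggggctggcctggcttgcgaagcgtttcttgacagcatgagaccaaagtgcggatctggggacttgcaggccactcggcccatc
Fcer1g, chr1:171234350-171234549, minus strand: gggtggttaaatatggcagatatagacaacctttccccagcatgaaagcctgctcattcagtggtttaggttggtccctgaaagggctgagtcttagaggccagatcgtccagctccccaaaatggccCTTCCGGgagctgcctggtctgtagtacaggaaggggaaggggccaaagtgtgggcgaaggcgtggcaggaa
Hapln2, chr3:88027512-88027711, minus strand: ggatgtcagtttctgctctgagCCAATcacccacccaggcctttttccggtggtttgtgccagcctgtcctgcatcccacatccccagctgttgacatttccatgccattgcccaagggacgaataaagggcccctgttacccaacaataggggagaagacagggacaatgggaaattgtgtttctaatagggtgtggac
Ttc24, chr3:88078305-88078504, minus strand: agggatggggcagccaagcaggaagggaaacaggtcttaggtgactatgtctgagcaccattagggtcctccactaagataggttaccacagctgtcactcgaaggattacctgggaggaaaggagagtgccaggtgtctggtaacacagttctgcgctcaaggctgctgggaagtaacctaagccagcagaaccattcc
Gapdh, chr6:125165774-125165973, minus strand: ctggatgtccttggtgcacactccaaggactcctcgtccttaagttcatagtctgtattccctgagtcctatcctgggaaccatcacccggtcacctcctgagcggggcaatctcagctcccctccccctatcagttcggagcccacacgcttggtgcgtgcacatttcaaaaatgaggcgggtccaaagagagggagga
Cd27, chr6:125237028-125237227, minus strand: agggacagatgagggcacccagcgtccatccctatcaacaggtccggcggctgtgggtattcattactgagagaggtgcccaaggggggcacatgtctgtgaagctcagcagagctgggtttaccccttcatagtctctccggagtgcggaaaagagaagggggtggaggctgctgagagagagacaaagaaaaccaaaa
Lrrc26, chr2:25289711-25289910, plus strand: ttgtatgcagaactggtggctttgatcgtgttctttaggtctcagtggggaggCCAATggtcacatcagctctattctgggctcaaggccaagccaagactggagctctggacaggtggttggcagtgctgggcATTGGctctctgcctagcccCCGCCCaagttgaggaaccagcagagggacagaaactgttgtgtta
Ptgds, chr2:25469750-25469949, minus strand: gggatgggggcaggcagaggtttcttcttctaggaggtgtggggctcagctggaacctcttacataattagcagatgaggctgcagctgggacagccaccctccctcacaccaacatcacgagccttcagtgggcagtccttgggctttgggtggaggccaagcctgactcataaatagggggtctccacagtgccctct
The promoter of Ankrd60 held 3 GC boxes and 1 ETS motif and was 73.7% C and G over the whole 300-base window, and that of Gnas held 1 GC box and 1 TATA box at 61.0%. In the other pairs GC boxes were found in Lrrc26 alone, NF-Y boxes in Cfap126, Hapln2 and Lrrc26, and ETS motifs in Fcer1g. The printed bases of Ttc24, Gapdh, Cd27 and Ptgds held none of these letters, which says nothing about the factors. The 10 promoters thus had no motif of this set in common.

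The highest score belonged to Ankrd60 and Gnas. Gnas encodes the stimulatory G protein alpha subunit and lies in an imprinted cluster, and Ankrd60 encodes an ankyrin repeat protein. Their bins, chr2:173576109-173581564 and chr2:174283886-174290465, lie 708 kb apart with 3 promoter bins between them. From Ankrd60 the Sertoli score was 23.0 and the pre-granulosa score 0.229, and from Gnas they were 32.6 and 1.70. The Sertoli scores were thus far above the pre-granulosa scores from both ends. A second pair of Ankrd60 and Gnas bins, 720 kb apart, also met the rule from Ankrd60, at 7.53 against 1.78. From Gnas that second pair was called in both cell types, at 18.7 and 7.40, so the absence of a pre-granulosa call holds for the first pair of bins and not for the locus.

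Cfap126, which encodes a protein of cilia and flagella, and Fcer1g, which encodes the gamma chain of Fc receptors, were 118 kb apart on chromosome 1. They scored 21.7 in Sertoli and 0.408 in pre-granulosa cells from Cfap126, and 28.4 and 1.60 from Fcer1g. Hapln2, a link protein of the brain's extracellular matrix, and Ttc24 were 50.5 kb apart on chromosome 3. Their contact scored 20.03 in Sertoli against 1.29 in pre-granulosa cells from Hapln2 and, in the same order as for the pairs that follow, 22.1 against 1.79 from Ttc24. Gapdh, the glycolytic enzyme, and Cd27, a receptor of lymphocytes, were 71.4 kb apart on chromosome 6. They scored 15.1 against 1.90 from Gapdh and 20.02 against 1.9997 from Cd27, the latter the highest pre-granulosa score that the rule admitted.

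The other 6 of the 10 pairs with the highest scores from both ends had Sertoli scores between 12.5 and 17.6. Qtrt1, a subunit of the enzyme that puts queuine into tRNA, met Dnm2, the dynamin of endocytosis, with 15.3 against 1.38 and 15.0 against 1.89. Edc4, a scaffold of mRNA decapping, met the protease gene Ctrl with 13.1 against 0.904 and 17.6 against 1.56. Rbm45, an RNA-binding protein, and Pjvk, a gene of hearing, scored 13.8 against 0.594 and 12.9 against 0.623 over 275 kb with no promoter bin between them. Brsk1, a kinase of neuronal polarity, and Ube2s, a ubiquitin-conjugating enzyme of mitosis, scored 12.8 against 0.721 and 13.1 against 0.543. Rnf141 and Mrvi1 gave 12.7 against 1.04 and 14.0 against 1.28. Nfxl1 and Nipal1 gave 12.5 against 1.06 and 16.1 against 1.43. Whether the joined genes share a role was not tested. In each of the 10 pairs the Sertoli scores of both ends exceeded both pre-granulosa scores, as the rule requires. A pre-granulosa call lay 1 bin away from 4 of the 10, namely Cfap126 and Fcer1g, Gapdh and Cd27, Edc4 and Ctrl, and Brsk1 and Ube2s.

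**Figure D1:**
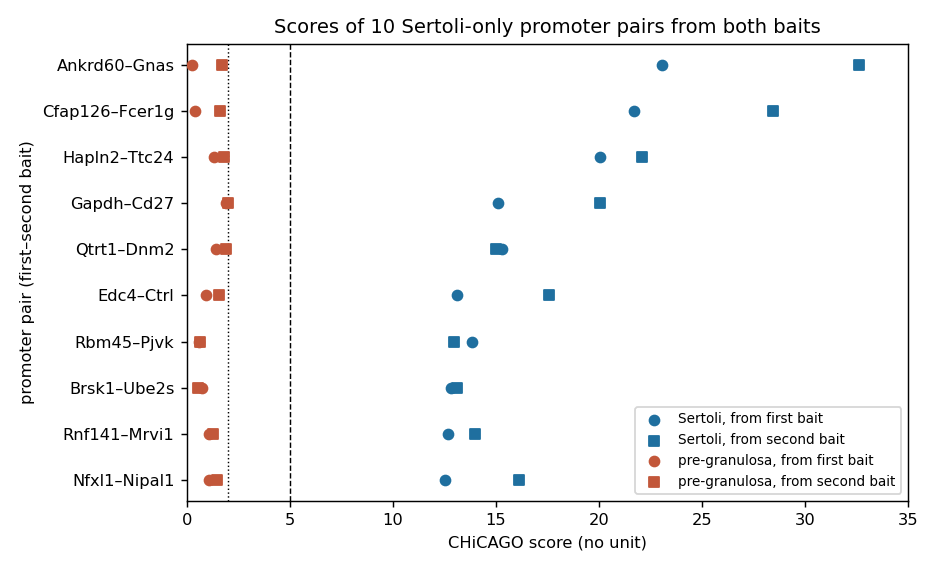
CHiCAGO scores (x axis, no unit) of the 10 Sertoli-only pairs with the highest lower Sertoli score (y axis), with circles for the score from the first bait, squares for that from the second bait, blue for Sertoli and red for pre-granulosa cells. The dashed and dotted lines mark the limits of 5 and 2, and Sertoli scores run from 12.5 to 32.6 while pre-granulosa scores run from 0.229 to 1.9997.

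Most members lay much nearer to the Sertoli limit of 5 than these pairs. The Sertoli score of member rows had a median of 6.31 (95% order-statistic interval 6.25 to 6.38) and ran from 5.0003 to 32.6. It was under 6 in 42.1% of rows and 10 or more in 7.95%. The pre-granulosa score had a median of 1.21 (1.19 to 1.24), with 37.1% of rows under 1. The row closest above the Sertoli limit joined Hcst and Nfkbid to Hspb6 at 5.0003, and the next joined Dda1 to Ccdc194 at 5.001. The table lists a contact only where at least 1 cell type reached 5, so no row lies just below that limit with a low pre-granulosa score. At the pre-granulosa limit, Slc30a3 and Mpv17 lay inside at 1.9997 with a Sertoli score of 7.33, and Trim46 and Mtx1 lay outside at 2.002 with 5.71. A further 610 promoter rows had a Sertoli call with pre-granulosa cells listed at 0, which may stand for a missing value, and the rule leaves them out.

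The opposite direction, in which the other bin is the bait, met the rule as well in 561 members, or 21.6% (95% Wilson interval 20.1 to 23.2). In these the larger Sertoli score was at the median 1.20 times the smaller. In 453 members, or 17.4%, the opposite direction was a Sertoli call with a pre-granulosa score of 2 to 5, and in 32 it was a Sertoli call with pre-granulosa cells listed at 0. The opposite direction was called in both cell types in 17 members, or 0.655%. For 1457 members, or 56.1%, the opposite direction was not listed, although the other bin was a bait elsewhere, and in 76 the other bin was never a bait. Most members therefore rest on a single direction, while a pre-granulosa call appeared from the other end in 17 of the 1063 members listed in both directions. Among the 10 members with the highest Sertoli score in any direction, 2 met the rule from both ends, 4 reached a pre-granulosa score of 2 to 5 from the other end and 4 were called in both cell types from it. Mybphl and Psrc1, for example, scored 10.5 against 1.58 from Psrc1 but 30.2 against 5.52 from Mybphl.

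The deposited table with the original baits uses single restriction fragments as baits in the same libraries, so it is a second scoring and not a replicate. It too lists no contact whose higher score is under 5. A row of it overlapped both bins in 406 members, or 15.6%, while 2190 members had no row, so the scores that follow describe only pairs with a call in that table. The Sertoli score was the higher one in 387 of these, or 95.3% (92.8 to 97.0), against 15 of 90 pre-granulosa-only pairs, or 16.7% (10.4 to 25.7), and 68.1% of 2988 pairs called in both. The median scores of the 406 members were 6.08 in Sertoli and 1.04 in pre-granulosa cells. In 72.2% (67.6 to 76.3) the same rule of a Sertoli call and a pre-granulosa score under 2 held, here with 0 admitted, and in 7.64% pre-granulosa cells had a call. The same rule held there for 496 of the 2988 pairs called in both, or 16.6% (15.3 to 18.0). Of the 10 pairs with the highest scores from both ends, 7 had such a row, with Sertoli scores from 6.63 to 15.8 and pre-granulosa scores up to 1.48. Edc4 and Ctrl gave 15.8 against 1.45, and Hapln2 and Ttc24 gave 13.2 against 0.865. Ankrd60 and Gnas at 708 kb, the pair with the highest score, had no such row, nor had Rbm45 and Pjvk or Nfxl1 and Nipal1. The second Ankrd60 and Gnas pair gave 6.10 against 2.21, above the limit of 2.

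**Figure D2:**
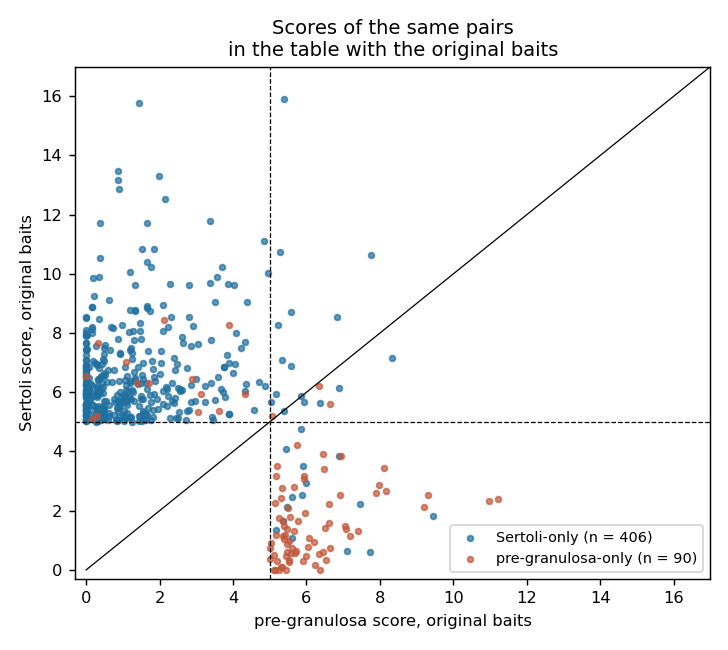
Sertoli score against pre-granulosa score in the table with the original baits, 1 point per pair, with 406 Sertoli-only pairs in blue and 90 pre-granulosa-only pairs in red. The solid line marks equal scores and the dashed lines the call limit of 5, and 387 blue points lie above the solid line.

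Sertoli-only pairs spanned longer distances than pairs called in both cell types. Their median distance was 90.6 kb (86.8 to 93.7), against 33.5 kb (32.7 to 36.6) for pairs called in both and 76.7 kb (70.5 to 82.3) for pre-granulosa-only pairs. Members that met the rule from both ends had a median of 91.1 kb and those that met it from 1 end 90.6 kb. The same order was found around single promoters. In 2530 bins that had both kinds of pair, the members were the farther ones in 2060, or 81.4% (79.9 to 82.9), with medians of 92.4 and 37.4 kb. Members passed over a median of 3 other promoter bins, pairs called in both over 1. No promoter bin lay between the ends in 15.6% of members, 22.7% of pre-granulosa-only pairs and 35.6% of pairs called in both. The intervals cover counting error only, and pairs that share a bin are not independent.

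The share of listed pairs that were members went from 3.18% under 20 kb to 9.69% from 20 to 50 kb, 17.4% from 50 to 100 kb and 24.4% (23.0 to 25.9) from 100 to 200 kb. It was 21.1% from 200 to 500 kb and 13.6% (7.76 to 22.7) of the 81 pairs at 500 kb or more. Pre-granulosa-only pairs went from 2.81% under 20 kb to 8.69% from 200 to 500 kb. Members thus outnumbered them 1.13 to 1 at the shortest distances and 3.13 to 1 from 100 to 200 kb. Over all distances the ratio was 2.38 (2.22 to 2.55). Sertoli cells also had more calls among all promoter rows, 21976 against 17252, and when the same number of rows was taken as called in each cell type the ratio was 1.45. The part of sequencing depth in this difference was not tested, since the depth is unknown. The shortest members were 10.1 kb apart, at Mxra8 and Dvl1, and the longest was the second Ankrd60 and Gnas pair.

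**Figure D3:**
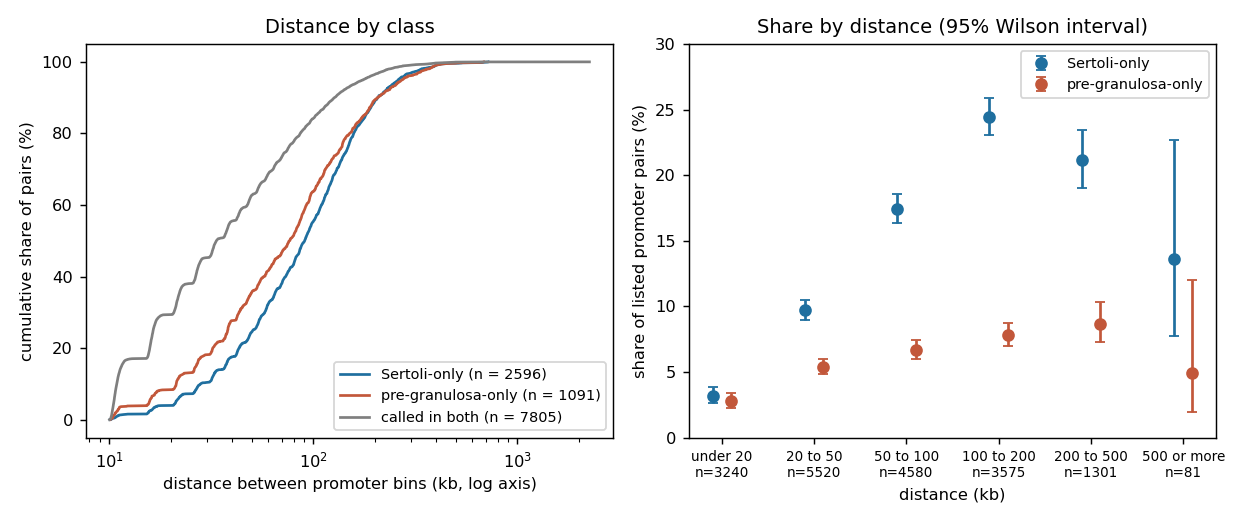
Left, cumulative share of pairs (%) against distance (kb, log axis) for 2596 Sertoli-only, 1091 pre-granulosa-only and 7805 pairs called in both cell types. Right, share of listed promoter pairs (%) in each distance class (kb) that were Sertoli-only or pre-granulosa-only, with 95% Wilson intervals, where the Sertoli-only share is highest, 24.4%, from 100 to 200 kb.

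A Sertoli-only score at a pair of bins did not mean that the neighbourhood lacked pre-granulosa contacts. A pre-granulosa call lay 1 bin away from 24.1% (22.5 to 25.8) of members, against 57.5% of pairs called in both. In the mirrored case a Sertoli call lay 1 bin away from 24.4% of pre-granulosa-only pairs. The same genes were joined by another bin pair with a pre-granulosa call in 26.0% of members. Either of these held for 944 members, or 36.4%. Of the members' bins that served as baits, 81.2% had a pre-granulosa call of their own at some bin, against 85.6% of all listed promoter baits. Cyp11a1, which cleaves cholesterol in the first step of steroid synthesis, shows this at close range. Its bin met a bin of Islr2 and Islr 199 kb away with 7.96 in Sertoli against 1.61 in pre-granulosa cells, and 7.94 against 1.70 from the other end. Another pair of bins of the same genes, 188 kb apart, was called in both cell types from Islr at 11.3 and 5.17.

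The 2596 members joined 3706 bins with 3268 gene symbols, and 2663 bins had 1 member partner. Linked through shared bins they formed 1232 groups, of which 803 were single pairs and 28 held 10 or more bins. The largest group spanned 1135 kb of chromosome 2 (chr2:25093880-26228648) from Noxa1 to Qsox2, a region of lipocalin genes such as Lcn12 and Ptgds. It held 37 bins and 45 member pairs, with a median of 119 kb, beside 120 pairs called in both with a median of 44.6 kb and 5 pre-granulosa-only pairs. Of the 268 promoter pairs listed in its span, 49 were members, 4 of them not linked to the group. The groups were found by their members, so these counts are a description of the groups chosen. The second group, on chromosome 7 around Hrc and Ruvbl2, held 36 bins and 40 members, and its span had 47 members among 288 listed pairs. The third, on chromosome 7 around Nphs1 and Kmt2b, held 32 bins and 34 members, and its span had 40 members among 213 listed pairs.

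The bin with the most member partners held the starts of Tmem210 and Lrrc26, the latter a subunit of potassium channels. Of its 28 listed promoter pairs, 8 were members, from 48.8 to 211 kb away, 10 were called in both, 10 fell between the classes and none was pre-granulosa-only. The rule was met from both ends with Fut7, a fucosyltransferase, at 5.35 against 0.435 and 6.30 against 0.544. It was also met from both ends with the bin of Fbxw5 and C8g, at 6.36 against 0.0916 and 8.01 against 0.104. The contact with Cysrt1 scored 11.5 against 1.49 from Tmem210 and Lrrc26 but was 19.3 against 2.46 from the other end. Hrc, a calcium-binding protein of the sarcoplasmic reticulum, had 6 member partners among 18 listed pairs. Among these was Kcna7, a potassium channel, 70.5 kb away, with 5.37 against 1.11 from Hrc and 9.17 against 1.92 from Kcna7. Sec16a, a protein of endoplasmic reticulum exit sites, and Egfl7, a secreted protein of blood vessels, had 6 members each, of 9 and 10 listed pairs, and were partners of each other. Of 2100 bin pairs that shared a member partner, 39.0% were themselves listed, 18.3% were called in both and 7.29% were members. These bins were chosen for having a member partner, so the shares describe the groups and are not set against other bins.

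**Figure D4:**
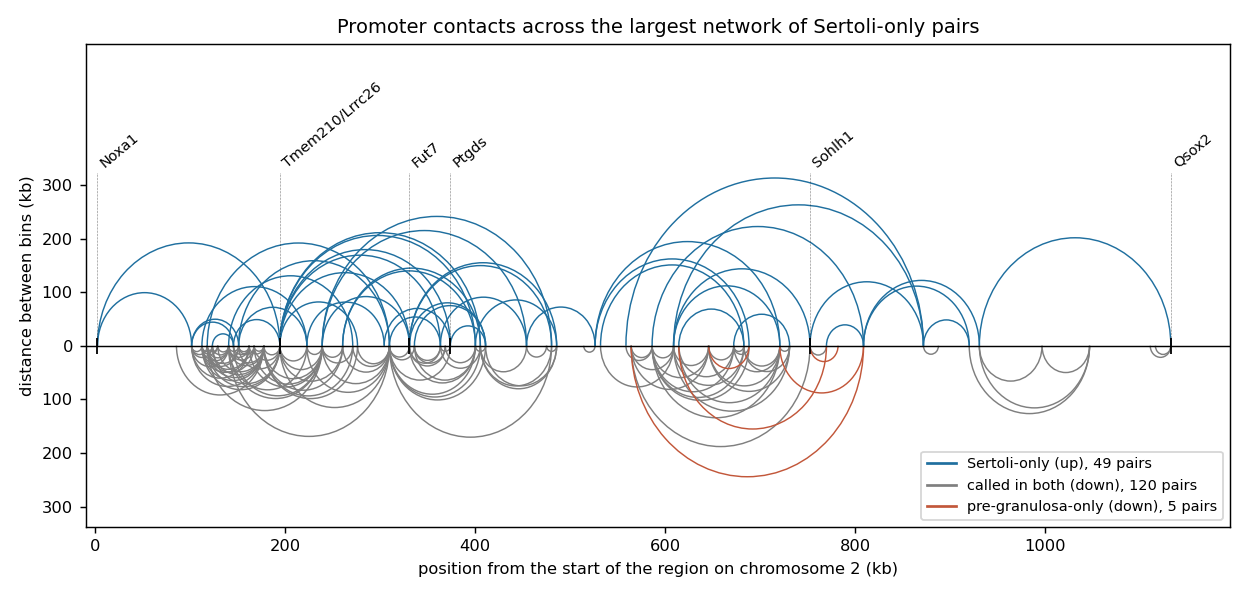
Promoter pairs across the largest linked group, with position (kb from the start of the region) on the x axis and the distance between the joined bins (kb) as the height of each arc. The 49 Sertoli-only pairs of the region, 45 of them in the group, arch upwards in blue, and 120 pairs called in both (grey) and 5 pre-granulosa-only pairs (red) arch downwards, and many blue arcs reach over several grey ones.

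Sertoli genes of the supporting cell programme had members at about the share of all genes. Of 8 Sertoli genes with a listed promoter pair, 3 had a member, or 37.5% against 41.1% of all genes, and members made up 6 of their 38 pairs, or 15.8% (7.44 to 30.4), near the 14.2% of all pairs. Ptgds, the prostaglandin D synthase that Sertoli cells express, had 3 members. It scored 8.33 against 0.898 with Tmem210 and Lrrc26 from Ptgds, 5.16 against 1.71 and 7.11 against 1.95 with Entpd2, and 5.96 against 1.33 with Fbxw5. With Npdc1, at 64.1 kb, Ptgds was called in both at 9.66 and 8.98. Cst9, the cystatin-related gene also known as testatin, met its relatives Cstl1, at 7.90 against 0.882, and Cst11, at 10.1 against 1.72. From Cst9 the same contacts scored 22.3 against 2.50 and 13.8 against 2.19, above the limit of 2 in both cases. Some other genes of the list had a contact that went the other way. Defb19, a defensin gene, had the list's 1 pre-granulosa-only pair, or 2.63% against 5.96% over all pairs, with H13 at 0.976 in Sertoli and 6.27 in pre-granulosa cells. Cldn11, a claudin of Sertoli cell junctions, scored 2.10 and 8.00 with Prkci, and the collagen gene Col9a3 scored 2.43 and 7.93 with Dido1. Col9a3 also had contacts with the higher score in Sertoli cells, such as 18.5 against 9.17 with Mrgbp. Nr5a1, which had no member, scored 10.5 in Sertoli against 4.02 in pre-granulosa cells with Nr6a1.

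Wt1, a transcription factor of the supporting cells of both sexes, met Eif3m, a translation initiation factor subunit, over 108 kb, with 5.69 against 0.797 from Eif3m and 8.80 against 1.41 from Wt1. Its nearer contacts with Gm11060 were called in both. Pre-granulosa genes had 2 members among 13 listed pairs, or 15.4% (4.33 to 42.2). Both were at Rspo1, 1 of 7 such genes with a listed pair, or 14.3% against 41.1% of all genes. The list also had 2 pre-granulosa-only pairs, or 15.4%, against 5.96% over all pairs. These joined Lef1, a transcription factor of Wnt signalling, to Rpl34, with 0.869 in Sertoli and 6.70 in pre-granulosa cells, and the homeobox gene Msx1 to Stx18, with 0.466 and 6.51 from Stx18. Rspo1, a secreted activator of Wnt signalling that ovary development needs, scored 10.5 in Sertoli and 1.42 in pre-granulosa cells with Cdca8 and 6.60 against 1.33 with Yrdc. A Sertoli-only contact was thus found at a gene known from the ovary as well as at genes known from the testis, and no expression was measured here.

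Genes of other gonadal cells were looked at because a sort can hold them. Among steroidogenic genes, Cyp11a1 had 3 members. Endothelial genes had 6 among 14, or 42.9% (21.4 to 67.4), against 14.2% of all pairs. Of these, 5 shared the gene Eng, the TGF-beta co-receptor, and 1 was at Cdh5, so the share rests on few genes. The highest of these joined Eng to St6galnac6 with 11.3 against 1.22 and 13.0 against 1.89. Immune genes had 3 among 16, or 18.8% (6.59 to 43.0), all at Spi1. The interstitial gene Pdgfra had 1 of 7, or 14.3% (2.57 to 51.3), and germ cell genes had 0 among 8, with an upper bound of 32.4%. Whether other cells had a part in any contact was not tested.

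The members were also grouped by gene lists of general functions, chosen by symbol. Respiratory chain genes, among them assembly factors such as Ndufaf1 and Cox19, had 34 members among 179 listed pairs, or 19.0% (13.9 to 25.4), against 2.23% pre-granulosa-only. Proteasome and ubiquitin genes had 88 among 486, or 18.1% (14.9 to 21.8), with Ube2s, Psmd4 and Usp2 as examples. Mitochondrial ribosomal protein genes had 10 among 150, or 6.67% (3.66 to 11.8), and cytosolic ribosomal protein genes 15 among 164, or 9.15% (5.62 to 14.5). Developmental transcription factor families had 27 among 235, or 11.5% (8.02 to 16.2). Set against 14.2% of all pairs, only the intervals of proteasome and ubiquitin genes, mitochondrial ribosomal protein genes and olfactory receptors excluded that share among the lists with 100 or more pairs, and genes of a list often share bins. Over all lists together 36.0% of genes had a member, against 41.1% of all genes with a listed promoter pair. Olfactory receptors were 666 of the 2236 list genes, and 203 of these receptors, or 30.5%, had a member.

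Olfactory receptor genes, which lie in long clusters and are mostly silent outside sensory neurons, went against the general excess of Sertoli-only pairs. They had 167 members among 1949 listed pairs, or 8.57% (7.41 to 9.89), and 250 pre-granulosa-only pairs, or 12.8%. Both ends were olfactory receptors in 134 of the 167 members. Olfr874 and Olfr878 scored 8.71 against 1.03 from Olfr878 and 21.7 against 4.22 from Olfr874. Olfr554 and Olfr571, 279 kb apart with 21 promoter bins between them, scored 8.37 against 0.874 and 12.5 against 2.004. In no other list with 100 or more pairs did pre-granulosa-only pairs outnumber the members.

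**Figure D5:**
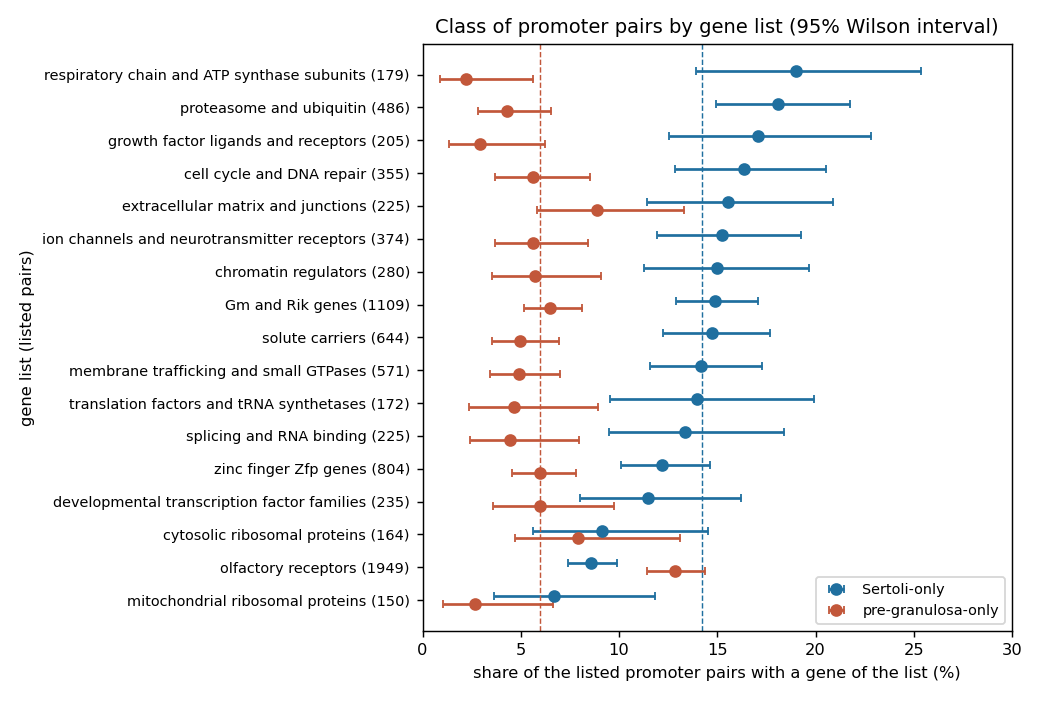
Share of listed promoter pairs (%, x axis) that were Sertoli-only (blue) or pre-granulosa-only (red) for each gene list with at least 100 listed pairs (y axis, number of pairs in brackets), with 95% Wilson intervals. The dashed lines mark 14.2% and 5.96% over all listed pairs, and the red point exceeds the blue one for olfactory receptors alone.

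Genes that share the letters of their symbol made up 9.51% (8.45 to 10.7) of the members, against 24.7% of pre-granulosa-only pairs, 12.4% of pairs called in both and 13.6% of all listed pairs. Olfactory receptor pairs made up 130 of these 247 members and 220 of the 269 pre-granulosa-only pairs. With all pairs of olfactory receptors at both ends left out, the share was 4.75% (3.98 to 5.67) of members, 5.70% (4.34 to 7.46) of pre-granulosa-only pairs, 5.02% of pairs called in both and 5.24% of all listed pairs. The intervals of the members and of the pre-granulosa-only pairs overlap. Among the rest were the kallikrein proteases Klk7 and Klk6, 10.7 kb apart, with 5.90 against 0.974 from Klk6, and the zinc finger genes Zfp59 and Zfp850, with 14.0 against 0.0116 from Zfp850. The proteases Prss43 and Prss50 gave 7.88 against 1.60 from Prss50 but were called in both from Prss43, at 14.3 and 5.002. A further 7.09% of members joined alternative promoters of 1 gene, against 6.97% of pre-granulosa-only pairs, 16.2% of pairs called in both and 11.8% of all listed pairs. Ptprf, a receptor tyrosine phosphatase, had bins 54.4 kb apart that scored 9.26 against 0.462 and 26.8 against 2.12. Sox6, a transcription factor of the Sox family, had bins 180 kb apart at 18.5 against 1.07, seen from 1 end. Where each bin had a single orientation, the genes pointed the same way in 56.2% (53.0 to 59.3) of 942 members, against 55.2% of pairs called in both.

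The promoters of members had base composition and shares of most motifs near those of all listed pairs, with the TATA box as an exception. In the 2738 RefSeq windows of 300 bases that lay in member bins and matched the bin's gene symbol, the median share of C and G was 57.3% (57.0 to 57.7), against 57.0% in 7501 windows of all listed promoter bins and 53.0% in all 18612 windows of these chromosomes. GC boxes, GGGCGG on either strand, were in 48.5% (46.6 to 50.4) of member windows, 48.3% of all listed windows and 35.9% of all windows. The NF-Y box CCAAT was in 37.3%, 37.6% and 37.5%, and the ETS motif CCGGAAG in 13.7%, 12.9% and 8.83%. The short Sox motif ACAAAG was in 17.2% of member windows, 17.1% of listed windows and 19.0% of all windows. The TATA box TATAAA was in 9.39% (8.35 to 10.5) of member windows, against 13.9% (12.2 to 15.7) of pre-granulosa-only windows and 11.9% (11.2 to 12.7) of all listed ones. In windows of pairs called in both it was in 11.7% (10.8 to 12.6). Windows of olfactory receptor genes were not set apart here. The window sets overlap, since a promoter can have contacts of several classes, and a match is not evidence of binding.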

How the data were processed

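Capture Hi-C of 3 Sertoli and 2 pre-granulosa libraries was deposited by the authors as tables of CHiCAGO scores, with 1 score per contact and cell type and the libraries of a cell type combined. The deposited distance column, in bp with a sign, was used by its size in kb. The build is mm10 per the submitters' processing notes. The aligner, the caller version, the read filters, how libraries were combined and the depth are not given in the sources used here. The main table has bins of about 5 kb as baits (median length 5326 bp) and lists no contact whose higher score is under 5. Rows were filtered by the rule stated at the opening, and the same pair seen from either bait was counted once. The member pairs and gene lists were chosen with earlier results of these data known, and 3 symbol patterns of the lists were narrowed after the tables were seen because they took in genes of other families. Pairs were named by rule: the highest Sertoli scores, the highest from both ends, the longest and shortest, the largest hubs and linked groups, pairs of lineage or other-cell genes, pairs at the limits, and pairs of 1 symbol stem. Pairs of alternative promoters were added after their values were seen. Shares have Wilson and medians order-statistic 95% intervals, which cover counting error only. No test was run, since no value per library is given. The selection and the intervals were tested on simulated data. Python 3.11.15, pandas 2.3.3, numpy 2.4.6, SciPy 1.17.1, networkx 3.6.1 and matplotlib 3.10.9 were used. A few named contacts are not reported here.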

Additional observations from a re-analysis of the deposited data

How the results depend on the processing

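No paired analysis was possible because scores are given per cell type and carry no replicate number. With a score threshold of 7 there were 944 Sertoli-only pairs at a median distance of 94.9 kb. Of these 19.3% met the rule from both ends, and there were 3.40 members per pre-granulosa-only pair. At a threshold of 10 there were 220 pairs, 14.1% from both ends and a ratio of 5.64. With the other score below 1 the values were 990 pairs, 107 kb, 18.3% and 2.74, and below 3 they were 4279 pairs, 79.4 kb, 24.8% and 2.01. Admitting scores of 0 gave 103.5 kb, and a minimum distance of 20 kb gave 93.7 kb. With equal numbers of calls, reached at a Sertoli threshold of 5.92, there were 1586 pairs and a ratio of 1.45. Requiring the rule in both directions left 561 pairs and a ratio of 2.72. Leaving out pairs with a call of the other cell type 1 bin away, chosen after seeing the data, gave 96.6 kb. Counting contacts in place of genes, 13.0% of contacts with a list gene were members. The X chromosome added 25 members and 62 pre-granulosa-only pairs. The ratio stayed above 1 under each setting for which it was computed. Depth is unknown, replicate spread is not given, and the number of members moved widely with the limits on both scores. Of the member rows, 42.1% had a Sertoli score under 6.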

Other observations

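On the X chromosome, which the rule leaves out, the order of the classes was turned. It held 25 Sertoli-only and 62 pre-granulosa-only promoter pairs, where chromosomes 1 to 9 held 2596 and 1091. The number of promoter pairs listed on the X chromosome is not given here, so these are counts without shares. Sertoli cells are XY and pre-granulosa cells XX, so copy number and cell type cannot be told apart there. Among the 9 autosomes the ratio of Sertoli-only to pre-granulosa-only pairs ran from 1.76 on chromosome 6 to 3.22 on chromosome 4.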
